A study of Oryza sativa Indica Group and Oryza sativa Japonica Group with 12 samples.

Results

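Loops that span 100 kb to 1 Mb were taken from 6 lists of H3K27me3 chromatin loops in rice. A loop was included when both anchors lay on the same chromosome and the deposited distance between them was at least 100 kb and below 1 Mb. The 6 lists held 74691 such loops among 473059 loops in all. They numbered 14608 of 110885 loops in ZS97 root, 7106 of 90390 in ZS97 seedling, 14529 of 75056 in MH63 root, 14244 of 86383 in MH63 seedling, 2217 of 15913 in osemf2b and 21987 of 94432 in Dongjin. No measured PET value entered this choice.

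Polycomb repressive complex 2 (PRC2) deposits H3K27me3, a histone mark of silent chromatin that in plants covers many developmental genes in tissues where they are silent. Domains that carry the mark can contact each other over long distances within the nucleus. OsEMF2b is a rice member of the EMF2 family, which are subunits of PRC2, and the family is known for its part in the control of flowering.

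ChIA-PET enriches chromatin with an antibody, ligates DNA ends that lie close together, and reads both ends as a paired-end tag (PET). The PETs of a loop are the ligation products that join its 2 anchors, and the tags of an anchor are the reads that fall in it. The 12 samples formed 6 groups of 2 replicates: roots and seedlings of the variety Zhenshan 97 (ZS97), roots and seedlings of the variety Minghui 63 (MH63), osemf2b seedlings in the variety Dongjin, and Dongjin seedlings. All samples shared the same H3K27me3 antibody and were cross-linked with formaldehyde (1%, 10 min) and EGS (1.5 mM, 30 min). Neither the osemf2b allele nor the age of the plants is given in the sources used here, and roots and seedlings are mixtures of cell types. Fewer cells with a contact and a rarer contact in each cell cannot be told apart in such tissue.

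Each group was deposited as 1 list that pooled both replicates, so every value is the authors' value for a group. The spread between replicates is thus unknown, and no p-value is given. Ranges in parentheses are 95% intervals of counting error only, and PETs are amplified molecules, so true errors are wider. The lists held 282020 to 818847 PETs, and their p-values implied total tags of 13.4 M for root and 51.2 M for seedling in ZS97, 41.3 M for root and 22.1 M for seedling in MH63, 31.2 M for osemf2b and 39.4 M for Dongjin. The genome build is not given in the sources used here. Among the lists, the 4 of ZS97 and MH63 formed one set and osemf2b and Dongjin another, and loops were compared by position within a set only. The overlap of positions was measured once, as a check of this division. Within a set, 56.4% to 98.3% of the anchors of these loops overlapped an anchor of the other list, against 15.7% to 34.8% between the sets. For whole loops, both anchors overlapped those of a listed loop in 8.87% to 83.9% of loops within a set. Between the sets this share was 2.11% to 11.998%, so the ranges of the shares of loops overlapped.

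Loops of 100 kb to 1 Mb were the commonest class of loops within chromosomes in ZS97 root, MH63 root, MH63 seedling and Dongjin, among the classes under 20 kb, 20 to 100 kb, 100 kb to 1 Mb, 1 to 5 Mb and over 5 Mb. Their share of loops within chromosomes was 34.97% in ZS97 root (34.5 to 35.4), 27.9% in ZS97 seedling (27.3 to 28.4), 38.1% in MH63 root (37.6 to 38.5) and 37.2% in MH63 seedling (36.7 to 37.7). It was 32.6% in osemf2b (31.5 to 33.7) and 44.4% in Dongjin (44.0 to 44.8). In ZS97 seedling and osemf2b, loops of 20 to 100 kb were more frequent, at 30.1% and 34.8%.

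The number of loops differed most between osemf2b and Dongjin, with 2217 loops (2126 to 2311) in osemf2b against 21987 (21697 to 22280) in Dongjin. The ZS97 tissues also stood apart, with 14608 loops (14372 to 14847) in root against 7106 (6942 to 7273) in seedling. In MH63 the tissues were close in the lists as deposited, with 14529 loops (14294 to 14767) in root and 14244 (14011 to 14480) in seedling. With the same highest p-value in every list, MH63 root had 13362 loops and MH63 seedling 10897, and with at least 5 PETs 8477 and 5375. At that p-value ZS97 root had 10726 loops, ZS97 seedling 5649, osemf2b 2217 and Dongjin 18347. Total tags did not follow the deposited numbers: of the 4 ZS97 and MH63 lists, ZS97 root had the fewest total tags and ZS97 seedling the most. The part of tag depth in the number of loops was not tested.

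Most loops rested on few PETs, and a small share of them held much of the signal. The median was 3 PETs in ZS97 root, 4 in ZS97 seedling, 5 in MH63 root, 3 in MH63 seedling, 6 in osemf2b and 4 in Dongjin. Loops of only 2 PETs, the lowest number in any list, made up 37.1% in ZS97 root (36.3 to 37.9), 23.9% in ZS97 seedling (22.9 to 24.9), 15.4% in MH63 root (14.8 to 16.02), 33.1% in MH63 seedling (32.3 to 33.9), 17.0% in osemf2b (15.4 to 18.6) and 24.6% in Dongjin (24.0 to 25.2). The mean was far above the median in every list, at 6.58, 10.4, 13.8 and 7.95 PETs in ZS97 root, ZS97 seedling, MH63 root and MH63 seedling, and at 36.3 PETs in osemf2b against 10.8 in Dongjin. In osemf2b, 76 loops held as many PETs as all its other loops together, against 1552 loops in Dongjin. The 100 strongest osemf2b loops held 55.9% of the PETs of its loops in this range, whereas the 100 strongest held 17.8% in Dongjin and 16.3% to 21.8% in the 4 lists of ZS97 and MH63. Loops of 100 PETs or more made up 7.53% of osemf2b loops and 1.11% of Dongjin loops, which are 167 and 245 loops.

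**Figure D1:**
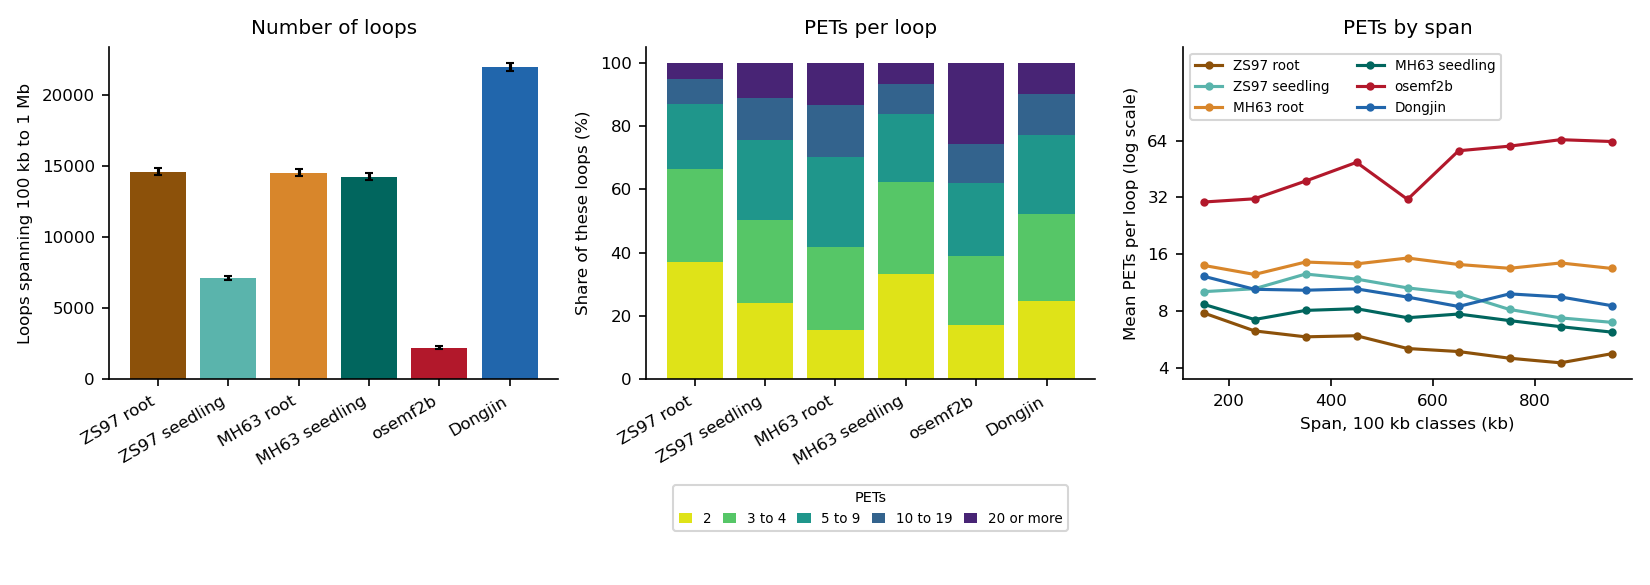
Loops spanning 100 kb to 1 Mb in the 6 lists. Left, number of loops with 95% Poisson intervals; middle, share of these loops (%) by number of PETs; right, mean PETs per loop (log scale) in span classes 100 kb wide, plotted at class centres. Dongjin has the most loops and osemf2b the fewest, and osemf2b has the highest mean PETs in every span class.

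Within the range, short spans prevailed. The median span was 232 kb in ZS97 root (229 to 236), 221 kb in ZS97 seedling (215 to 226), 201 kb in MH63 root (198 to 204) and 255 kb in MH63 seedling (252 to 259). It was 224 kb in osemf2b (214 to 234) and 270 kb in Dongjin (267 to 274). Loops of 100 to 200 kb made up 34.7% of these loops in Dongjin and 49.7% in MH63 root, the lowest and highest shares of the 6 lists. Loops of 900 kb to 1 Mb made up 1.17% in MH63 root to 2.83% in Dongjin.

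Mean strength differed by span in some lists more than in others. In ZS97 root the mean was 7.83 PETs at 100 to 200 kb and 4.76 PETs at 900 kb to 1 Mb, and the share of loops of 2 PETs was 33.5% and 49.4% in these classes. In MH63 root the mean was 13.98 and 13.5 PETs in the same classes. In osemf2b the mean was 30.2 PETs at 100 to 200 kb and 63.2 PETs at 900 kb to 1 Mb, although only 41 loops fell in the longest class and their median was 4 PETs. In Dongjin the mean was 12.2 and 8.55 PETs in these classes. Over single loops, PETs and span were nearly unrelated in every list, with Spearman's rho from -0.10 in ZS97 root to 0.05 in MH63 root.

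Loops just inside the lower limit had somewhat higher mean PETs than those just outside it in all 6 lists. Just outside that limit, loops of 90 to 100 kb had a mean of 8.46 PETs in ZS97 root, and loops of 100 to 110 kb just inside had 9.24. The means just outside and just inside were 10.3 and 11.8 PETs in ZS97 seedling, 12.9 and 16.3 in MH63 root, 9.45 and 10.6 in MH63 seedling, 26.9 and 27.6 in osemf2b, and 13.5 and 15.1 in Dongjin. The medians did not share this order. They were 4 PETs just outside and 3 just inside in ZS97 root, 7 and 6 in osemf2b, and 4 and 5 in Dongjin. In ZS97 seedling, MH63 root and MH63 seedling the medians were equal. At the upper limit the order varied by list. Loops of 0.9 to 1 Mb and of 1 to 1.1 Mb had means of 4.76 and 4.69 PETs in ZS97 root, 6.98 and 9.82 in ZS97 seedling, 13.5 and 15.1 in MH63 root, 6.20 and 7.57 in MH63 seedling, 63.2 and 60.8 in osemf2b, and 8.55 and 8.58 in Dongjin.

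Anchors of these loops were wider than those of shorter loops. The median anchor width was 7.88 kb in ZS97 root, 5.81 kb in ZS97 seedling, 7.57 kb in MH63 root, 6.75 kb in MH63 seedling, 10.3 kb in osemf2b and 7.49 kb in Dongjin. For loops of 20 to 100 kb the medians were 5.23, 3.85, 4.81, 4.21, 5.65 and 4.74 kb in the same lists. For loops of 1 to 5 Mb they were 8.53, 3.65, 7.42, 7.48, 7.72 and 8.71 kb. Anchors of that longer class were thus wider still in ZS97 root, MH63 seedling and Dongjin, and narrower in the other lists. The widest anchor among the long loops spanned 196 kb, in MH63 root. A loop with a wide domain at each end was rare but strong. Loops with both anchors at least 20 kb wide made up 2.09%, 1.44%, 3.61% and 1.33% of the loops in ZS97 root, ZS97 seedling, MH63 root and MH63 seedling, and held 17.9%, 17.7%, 33.4% and 16.2% of the PETs. In osemf2b, 148 loops of this kind, 6.68% of its loops, held 54.8% of the PETs, against 371 loops, 1.69%, with 23.3% of the PETs in Dongjin. Their median was 161 PETs in osemf2b and 70 PETs in Dongjin. None of these wide-domain loops rested on 2 PETs in any of the 6 lists.

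PETs followed the tags at the anchors. The median anchor had 1293 tags in ZS97 root, 4689 in ZS97 seedling, 3859 in MH63 root, 1991 in MH63 seedling, 8246 in osemf2b and 2956.5 in Dongjin. Over the loops of a list, Spearman's rho between the PETs and the product of the tags of both anchors was 0.70 in ZS97 root (n = 14608 loops), 0.94 in ZS97 seedling (n = 7106), 0.89 in MH63 root (n = 14529), 0.83 in MH63 seedling (n = 14244), 0.96 in osemf2b (n = 2217) and 0.85 in Dongjin (n = 21987). These are descriptions over loops of 1 pooled library each, in which a wide anchor gathers both more tags and more PETs.

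Most of these loops passed over other anchors. Anchors of all loops of a list, of any span or between chromosomes, were counted here. Between the anchors of a long loop lay a median of 10 of them in ZS97 root, 9 in ZS97 seedling, 8 in MH63 root, 11 in MH63 seedling, 6 in osemf2b and 9 in Dongjin. The anchors of a loop had a further partner in common in 87.9% of loops in ZS97 root (87.3 to 88.4), 71.6% in ZS97 seedling (70.5 to 72.6), 89.8% in MH63 root (89.3 to 90.3) and 86.8% in MH63 seedling (86.2 to 87.3). The share was 61.5% in osemf2b (59.5 to 63.6), against 93.6% in Dongjin (93.3 to 93.9). The share fell with span in every list. For loops of 20 to 100 kb it was 90.02% in ZS97 root, 83.0% in ZS97 seedling, 92.3% in MH63 root, 87.9% in MH63 seedling, 65.6% in osemf2b and 94.7% in Dongjin. For loops of 1 to 5 Mb it was 14.4% in osemf2b and 59.2% in Dongjin, and 13.4% to 50.1% in ZS97 and MH63. Anchors of the long loops also served other loops: 63.3% of them in osemf2b and 91.6% in Dongjin were anchors of loops under 100 kb too, and 84.8% to 94.1% were in ZS97 and MH63.

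Partners were unevenly spread over anchors. The median anchor had 2 partners at 100 kb to 1 Mb in each of the ZS97 and MH63 lists, 1 in osemf2b and 3 in Dongjin. In Dongjin, 1341 anchors of 7955 had at least 10 partners and took part in 75.3% of the loops, against 49 anchors of 2022 and 30.8% of the loops in osemf2b. The anchor with most partners in ZS97 root was 18762889 to 18842540 on chromosome 12, with 50 partners and 1884 PETs. In ZS97 seedling it was 18904375 to 18974781 on chromosome 11, with 50 partners and 3268 PETs. MH63 root and MH63 seedling shared their leading anchor, a domain on chromosome 12. It was listed at 17578538 to 17728023 in root, with 48 partners and 3614 PETs, and at 17589452 to 17727760 in seedling, with 73 partners and 2834 PETs. In osemf2b the leading anchor was 1860936 to 1969128 on chromosome 7, with 41 partners and 8759 PETs. In Dongjin it was 18530786 to 18627588 on chromosome 11, with 68 partners and 9017 PETs. All 6 were wide, from 70.4 to 149 kb.

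Long loops were densest on chromosome 11 in all 6 lists. Per Mb of the chromosome, as far as the loops of its set extended, chromosome 11 held 79.7 loops in ZS97 root (76.6 to 82.9), 32.8 in ZS97 seedling (30.8 to 34.9), 65.6 in MH63 root (62.8 to 68.6) and 61.1 in MH63 seedling (58.3 to 63.9). It held 10.3 in osemf2b (9.17 to 11.5) and 96.2 in Dongjin (92.6 to 99.8). In osemf2b chromosome 7 was level with it, at 10.1 loops per Mb (8.997 to 11.3). Loops of all spans within chromosomes were also densest on chromosome 11 in 5 of the 6 lists, at 185 per Mb in ZS97 root, 146 in MH63 root, 150.4 in MH63 seedling, 26.4 in osemf2b and 203 in Dongjin. In ZS97 seedling they were level on chromosomes 1 and 11, at 93.4 and 91.9 per Mb. The high density on chromosome 11 was thus not confined to the long loops, although these made up a larger share of loops there than list-wide. The share on chromosome 11 was 43.0% against 34.97% list-wide in ZS97 root, 35.7% against 27.9% in ZS97 seedling and 44.8% against 38.1% in MH63 root. It was 40.6% against 37.2% in MH63 seedling, 39.1% against 32.6% in osemf2b and 47.4% against 44.4% in Dongjin. In MH63 seedling, osemf2b and Dongjin another chromosome had a higher share. Chromosome 5 was sparse in ZS97 root and MH63 root, at 24.8 and 23.0 loops per Mb. By PETs, chromosome 11 held 22.9% of the signal of these loops in ZS97 root, 22.1% in ZS97 seedling, 20.7% in MH63 root and 13.7% in MH63 seedling. The osemf2b list divided its PETs otherwise than Dongjin: chromosome 7 held 26.9% in osemf2b and 17.9% in Dongjin, chromosome 12 held 14.2% and 7.17%, and chromosome 11 held 8.05% and 17.9%.

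**Figure D2:**
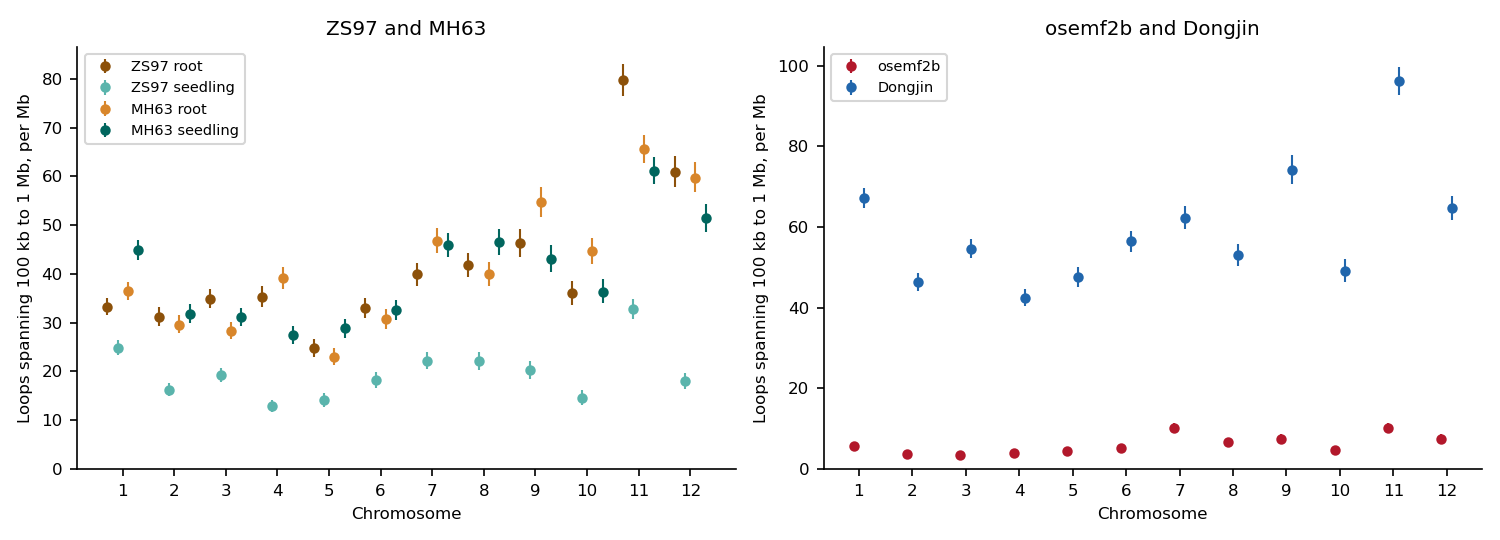
Loops spanning 100 kb to 1 Mb per Mb of chromosome, by chromosome number, with 95% Poisson intervals. Left, the 4 lists of ZS97 and MH63; right, osemf2b and Dongjin. Chromosome 11 has the highest density of each list, at 79.7 loops per Mb in ZS97 root and 96.2 in Dongjin.

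Along the chromosomes, the same tissue of both varieties had the more similar profile. Over 366 bins of 1 Mb, Pearson's r of the number of loops was 0.83 between ZS97 root and MH63 root and 0.86 between ZS97 seedling and MH63 seedling. It was 0.68 between root and seedling of ZS97 and 0.64 between root and seedling of MH63. Across tissue and variety at once it was 0.74 between ZS97 root and MH63 seedling and 0.46 between ZS97 seedling and MH63 root. Between osemf2b and Dongjin it was 0.74 over 379 bins. Neighbouring bins are not independent, and these values are descriptions. In osemf2b 114 bins had no such loop, against 17 in Dongjin.

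The strongest single loops joined wide domains on a few chromosomes. In MH63 root the strongest loop, with 2390 PETs, joined 1738144 to 1886545 with 2106612 to 2260136 on chromosome 7, a span of 371 kb. Its anchors were 148 and 154 kb wide. In ZS97 root, the strongest loop of 444 PETs joined 19118534 to 19181258 with 19239532 to 19289447 on chromosome 11. The strongest ZS97 seedling loop lay beside it and joined 18904375 to 18974781 with 19115923 to 19181190 by 730 PETs. In MH63 seedling the strongest was again on chromosome 7, where 749 PETs joined 1471362 to 1506380 with 1744323 to 1860236. Chromosome 7 also led in Dongjin, where 1819 PETs joined 2231433 to 2306470 with 2385857 to 2455794, and 1663 PETs joined 1867093 to 1969357 with 2385857 to 2455794. In osemf2b 1915 PETs joined 6371667 to 6492846 with 6546027 to 6591540 on chromosome 5, where the Dongjin loop had 1518 PETs. The next osemf2b loop, of 1430 PETs, joined 1532039 to 1577144 with 1860936 to 1969128 on chromosome 7, where Dongjin had 2 loops that summed to 798 PETs.

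Strong contacts reached the upper limit of the range. The longest loop of at least 50 PETs spanned 982 kb in ZS97 root (81 PETs, chromosome 12), 986 kb in ZS97 seedling (84 PETs, chromosome 7), 978 kb in MH63 root (99 PETs, chromosome 11) and 995 kb in MH63 seedling (72 PETs, chromosome 12). In osemf2b it spanned 994 kb on chromosome 4, with 96 PETs, against 15 PETs over 2 Dongjin loops at the same place. In Dongjin it spanned 987 kb on chromosome 7, with 67 PETs, where osemf2b had 1 loop of 319 PETs. The MH63 seedling loop, between 16660095 to 16666408 and 17589452 to 17727760, had no counterpart in the other 3 lists of its set.

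Whether the same loops were listed in both tissues of a variety was examined next. A loop was counted as found again when both its anchors overlapped both anchors of 1 loop of the other list by at least 1 bp. In ZS97, 20.3% (19.7 to 21.0) of root loops were found again in seedling, and in MH63, 30.1% (29.4 to 30.9) of root loops were. Over all loops within chromosomes the shares were 22.7% for ZS97 root and 31.6% for MH63 root, so the long loops were close to the background of their lists. In the other direction, 48.5% (47.3 to 49.7) of ZS97 seedling loops were found in ZS97 root and 45.0% (44.2 to 45.8) of MH63 seedling loops in MH63 root, against 44.9% and 43.8% over all loops within chromosomes. The anchors themselves recurred more often than the loops: 70.2% of anchors of ZS97 root overlapped an anchor of any loop in ZS97 seedling, and 77.7% of those of MH63 root one in MH63 seedling. The anchors searched were those of the whole list, with loops of other spans and between chromosomes.

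Between the varieties, 49.2% (48.3 to 49.97) of ZS97 root loops were found again in MH63 root and 48.7% (47.6 to 49.9) of ZS97 seedling loops in MH63 seedling, against 46.5% and 44.7% over all loops within chromosomes. In the other direction the shares were 40.3% (39.5 to 41.1) for MH63 root in ZS97 root and 24.2% (23.5 to 24.9) for MH63 seedling in ZS97 seedling, with backgrounds of 44.2% and 28.9%. Across tissue and variety at once, 32.1% (31.3 to 32.8) of ZS97 root loops were found in MH63 seedling, against 29.7% over all loops within chromosomes, and 46.2% (45.0 to 47.3) of ZS97 seedling loops in MH63 root, against 42.1%. For MH63 root in ZS97 seedling the share was 17.4% (16.8 to 18.03), against 21.7%, and for MH63 seedling in ZS97 root it was 38.9% (38.1 to 39.7), against 38.9%. A share depends on how many loops the searched list holds, and ZS97 seedling holds the fewest of the 4.

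Recurrence went with PETs. Of MH63 root loops, 3.12% (2.44 to 3.93) of those with 2 PETs and 75.8% (73.8 to 77.7) of those with 20 or more were found again in MH63 seedling. For ZS97 root in ZS97 seedling the shares were 6.90% (6.24 to 7.61) and 75.7% (72.4 to 78.8). Loops of 20 or more PETs were found in the same tissue of the other variety more often than in the other tissue of their own variety in 3 of the 4 lists. The shares were 94.2% in MH63 root and 75.7% in ZS97 seedling for ZS97 root, 93.0% in MH63 seedling and 82.2% in ZS97 root for ZS97 seedling, and 83.6% in ZS97 root and 75.8% in MH63 seedling for MH63 root. MH63 seedling was the exception, with 74.5% found in ZS97 seedling and 80.4% in MH63 root.

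**Figure D3:**
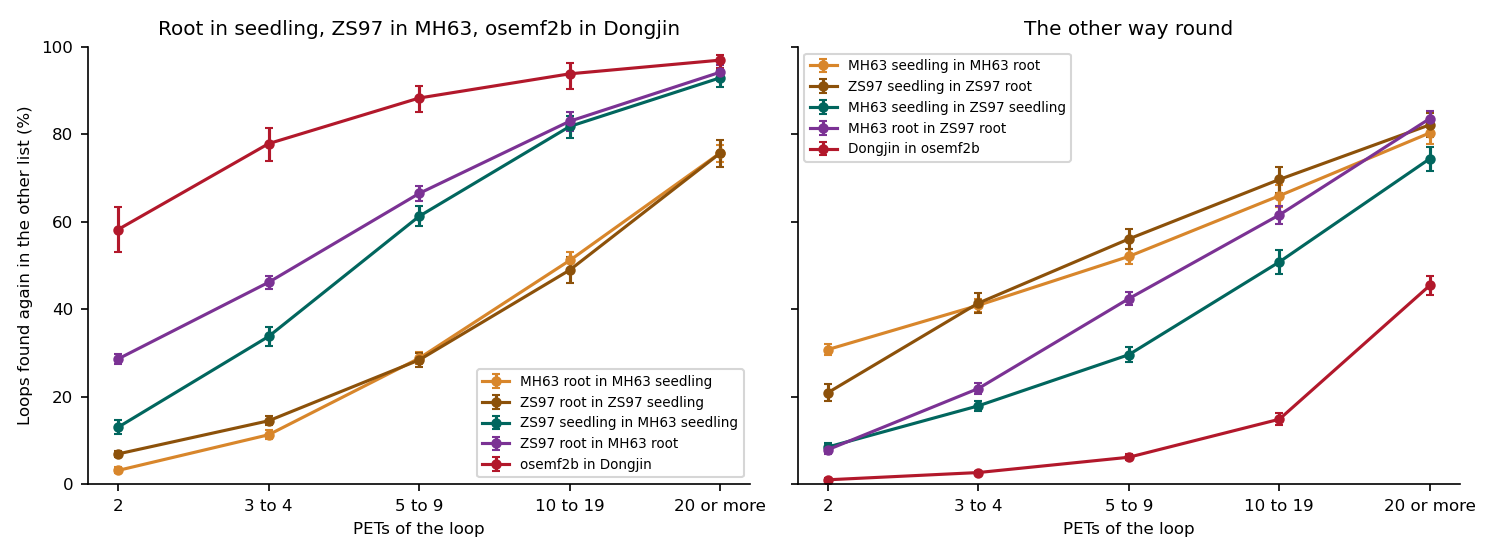
Share (%) of loops spanning 100 kb to 1 Mb found again in another list, by PETs of the loop, with 95% Clopper-Pearson intervals. Left, root in seedling, ZS97 in MH63 and osemf2b in Dongjin; right, the same pairs of lists the other way round. Every line is higher at more PETs, and for MH63 root in MH63 seedling it stands at 3.12% for 2 PETs and at 75.8% for 20 or more.

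Recurrence also differed by span. For ZS97 root in MH63 root, 72.2% of loops of 20 to 100 kb, 49.2% of loops of 100 kb to 1 Mb and 8.26% of loops of 1 to 5 Mb were found again. Among loops of at least 10 PETs the shares were 88.1%, 87.3% and 45.0%. With PETs held to that level, loops of 100 kb to 1 Mb recurred about as often as those of 20 to 100 kb in this comparison, and those over 1 Mb did not. For ZS97 seedling in ZS97 root at 10 or more PETs, 89.6% of loops of 20 to 100 kb were found again. The shares were 75.3% at 100 kb to 1 Mb and 24.6% at 1 to 5 Mb.

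Over the other 3 lists of the set, 39.8% of ZS97 root loops, 32.04% of ZS97 seedling loops, 48.1% of MH63 root loops and 40.5% of MH63 seedling loops were found in none. Loops found in all 3 made up 12.3%, 28.0%, 11.3% and 14.1%, and held 39.6%, 57.5%, 42.8% and 43.4% of the PETs. Of the 1919 MH63 root loops of 20 or more PETs, 131 were found in none of the other 3 lists, 6.83%, and of the 967 such MH63 seedling loops 61 were, 6.31%. In ZS97 root 12 of 729 were found in none, 1.65%, and in ZS97 seedling 24 of 781, 3.07%.

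To compare strength, overlapping anchors of a set were merged into regions and the PETs between the same 2 regions were added up, then scaled on the list's total PETs. Pairs whose midpoints lay 100 kb to 1 Mb apart and that had at least 20 PETs over both lists were compared. A pair was called at a ratio of 2-fold or more with a 95% interval that excluded 1, and where a list had no loop for a pair, a floor of 3 PETs was used. A pair that is not listed may still have PETs below the authors' thresholds. Under this scaling, every compared pair listed in only 1 list was called, because at least 20 PETs stood against the floor. Such a call shows absence from a list and not a measured ratio.

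Root and seedling of MH63 were called different at most of these pairs. Of 2898 pairs, 1160 were higher in MH63 root, 40.0%, against 46.1% over pairs of all distances, and 470 were lower, 16.2%, against 15.1%. The share of higher calls was thus below that over all distances, and the share of lower calls was near it. Higher calls made up 71.2% of all calls, and 57.0% on total tags, where 911 pairs were higher and 686 lower. The median log2 ratio over these pairs was 0.67, and 0.21 on total tags. Of the 2205 pairs listed in both MH63 lists, 690 were higher in root and 247 lower on list PETs. On total tags, 441 of these pairs were higher in root and 463 lower, so this lean depended on the scaling. Among the highest, regions 24749932 to 24898321 and 25615643 to 25647416 on chromosome 11, 807 kb apart, had 214 PETs in MH63 root against 3 in MH63 seedling, a ratio of 52.3 (17.6 to 255). On chromosome 4, regions 30417959 to 30461365 and 30535595 to 30547558 had 182 PETs in MH63 root against 2 in MH63 seedling, and 65 in ZS97 root against 6 in ZS97 seedling. Both varieties thus had the root-high order there. Among the lowest, regions 2097536 to 2260136 and 2448119 to 2461030 on chromosome 7 had 3 PETs in MH63 root against 99 in MH63 seedling, 45.0-fold lower in root (14.97 to 222). That pair had no listed loop in ZS97 root and 53 PETs in ZS97 seedling.

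In ZS97 the calls leaned the other way under the same scaling. Of 1537 pairs, 411 were higher in ZS97 root, 26.7%, against 34.1% over all distances, and 519 were lower, 33.8%, against 22.7%. Long pairs thus held fewer higher and more lower calls than pairs of all distances. The split depended on the scaling, since on total tags 975 pairs were higher and 99 lower, and the median log2 ratio was 1.71 in place of -0.38. Among pairs listed in both ZS97 lists, regions 16546200 to 16579281 and 16945665 to 17047395 on chromosome 10 had 173 PETs in ZS97 root against 3 in ZS97 seedling, a ratio of 52.1 (17.5 to 255), and 267 in MH63 root against 11 in MH63 seedling. On chromosome 12, regions 19602940 to 19650567 and 19765491 to 19823178 had 222 PETs in ZS97 root against 4 in ZS97 seedling, and 329 in MH63 root against 13 in MH63 seedling. These root-high contacts appeared in both varieties. On chromosome 2, regions 28600697 to 28620662 and 28737373 to 28753842 had 2 PETs in ZS97 root against 60 in ZS97 seedling, 33.2-fold lower in root (8.80 to 281). The same pair had no listed loop in MH63 root and 51 PETs in MH63 seedling.

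Of the 1255 pairs compared in both varieties, 300 were higher in root in both, 23.9%, against 28% over pairs of all distances, and 233 were lower in root in both, 18.6%, against 12.5%. A further 360 were called in 1 variety only, 9 were called in opposite directions and 353 in neither variety. On total tags 315 were higher in root in both, 59 were lower in both and 101 were called in opposite directions, so the pairs lower in both depended on the scaling. Among the named pairs of both varieties was 18609133 to 18624038 with 18741909 to 18842915 on chromosome 12, with 181 PETs in ZS97 root and 191 in MH63 root and no listed loop in either seedling list. A pair with the opposite pattern was 22998397 to 23053799 with 23121091 to 23134730 on chromosome 12, with 88 PETs in ZS97 seedling and 116 in MH63 seedling and no listed loop in either root list.

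**Figure D4:**
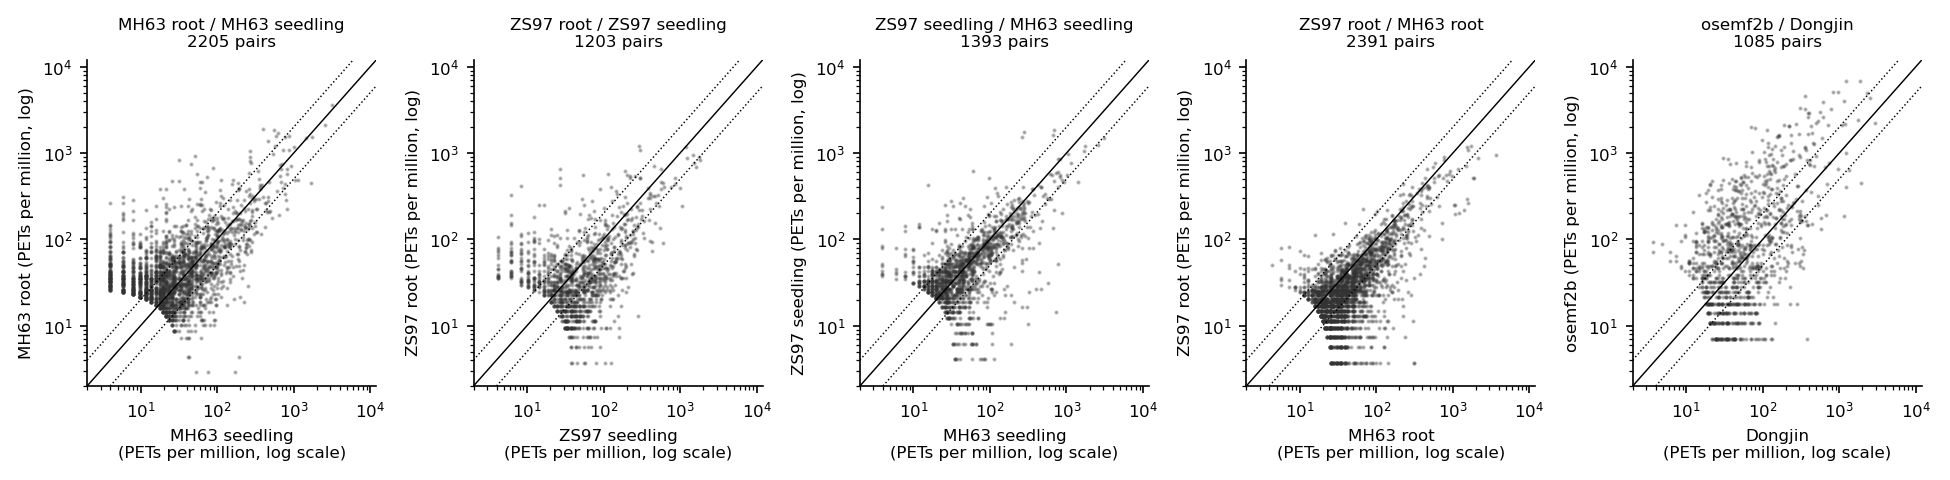
PETs scaled on the list's total, in the unit named on both axes (log scale), 1 point for each pair of regions 100 kb to 1 Mb apart that both lists hold and that has at least 20 PETs over both. The solid line marks equal values and dotted lines a 2-fold difference. Points for ZS97 root against MH63 root (2391 pairs) lie mostly below the solid line, and those for osemf2b against Dongjin (1085 pairs) spread widest.

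Between the seedlings of the varieties, how many pairs differed depended on the scaling. On list PETs, of 1683 pairs, 193 were higher in ZS97 seedling than in MH63 seedling, 11.5%, against 12% over all distances, and 458 were lower, 27.2%, against 27.3%. Both shares equalled the background within their intervals, so the distance range was not set apart here. The split was 311 higher and 383 lower when scaled on PETs within chromosomes, 84 and 1080 when scaled on total tags, and 146 and 215 among the pairs listed in both lists. The largest contrast in favour of ZS97 was 13751493 to 13806600 with 13874089 to 13900144 on chromosome 9, with 217 PETs in ZS97 seedling and no listed loop in MH63 seedling, although ZS97 root and MH63 root had 171 and 203 PETs. A pair on chromosome 11, 26550209 to 26595027 with 26744201 to 26745859, followed the variety in both tissues. It had 115 PETs in ZS97 seedling against 2 in MH63 seedling, and 95 PETs in ZS97 root against none listed in MH63 root. The reverse held on chromosome 7, where 17317294 to 17350004 and 17491624 to 17538075 had no listed loop in ZS97 seedling against 201 PETs in MH63 seedling, and 2 PETs in ZS97 root against 216 in MH63 root. In the roots that pair was 83.2-fold lower in ZS97 (22.8 to 692). Loops of both varieties were listed on 1 coordinate system, and the part of sequence differences between the varieties in such contrasts was not tested.

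Between the root lists nearly all calls were in the same direction on list PETs, but not on total tags. Of 2747 pairs, 108 were higher in ZS97 root than in MH63 root, 3.93%, against 6.76% over all distances, and 1007 were lower, 36.7%, against 32.5%. On total tags the split was 681 higher and 438 lower, and the median log2 ratio was 0.48 in place of -0.78. The highest 3 pairs listed in both root lists lay on chromosome 11. There, 7094751 to 7122916 with 7205909 to 7215058 had 43 PETs in ZS97 root against 4 in MH63 root, a ratio of 13.9 (5.07 to 53.5). The pair 1610056 to 1643035 with 2097536 to 2260136 on chromosome 7 had 222 PETs in MH63 root and 133 in MH63 seedling, and no listed loop in either ZS97 list.

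A core of long contacts was common to both varieties and both tissues. Of 29097 pairs of regions 100 kb to 1 Mb apart, 1601 had a listed loop in all 4 lists, 5.50% (5.24 to 5.77), against 6.6% over all distances. These pairs held 44.3% of the PETs of long pairs in ZS97 root, 62.9% in ZS97 seedling, 43.3% in MH63 root and 50.8% in MH63 seedling. Among the 1619 long pairs with at least 50 PETs over the 4 lists, 968 were listed in all 4, 59.8%, against 63.8% over all distances. A further 102 were listed in both root lists only, 6.30%, against 8.3% over all distances, and 44 in both seedling lists only, 2.72%, against 1.82%. By variety, 4 were listed in both ZS97 lists only, 0.247%, against 0.959%, and 56 in both MH63 lists only, 3.46%, against 3.26%. The strongest core pair, ranked by its lowest scaled value, joined 2097536 to 2260136 with 2332970 to 2376058 on chromosome 7, with 631 PETs in ZS97 root, 582 in ZS97 seedling, 1057 in MH63 root and 881 in MH63 seedling. The domain at 2097536 to 2260136 took part in the next 2 as well. With 1738144 to 1886545 it had 514, 724, 2519 and 1592 PETs in the same lists, and with 2047066 to 2094826 it had 464, 594, 1463 and 1301 PETs. The fourth joined 18904375 to 18975740 with 19106952 to 19200639 on chromosome 11, with 448 PETs in ZS97 root, 892 in ZS97 seedling, 525 in MH63 root and 354 in MH63 seedling. The fifth, also on chromosome 11, joined 24442373 to 24535579 with 25022132 to 25122310, 583 kb apart, with 352, 271, 815 and 522 PETs.

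The osemf2b list was compared with Dongjin to see which long contacts were listed in seedlings of that line. Most osemf2b loops had a counterpart: 83.9% (82.3 to 85.4) of its long loops were found again in Dongjin, against 69.5% over all loops within chromosomes, and 97.3% of its PETs in this range lay in such loops. The share was 58.2% (53.1 to 63.3) for loops of 2 PETs and 97.0% (95.2 to 98.2) for loops of 20 or more. By span it was 91.8% at 20 to 100 kb and 20.5% at 1 to 5 Mb. In the other direction, 8.87% (8.50 to 9.26) of Dongjin loops were found in osemf2b, close to the 9.02% over all loops within chromosomes. Of the Dongjin loops of 20 or more PETs, 45.5% (43.3 to 47.6) were found in osemf2b. The Dongjin loops found again had a median of 19 PETs and a median anchor width of 14.7 kb, against 4 PETs and 6.94 kb for those not found. Of 21533 pairs of regions at this distance, 1558 were listed in both osemf2b and Dongjin, 7.24% (6.89 to 7.59), against 7.57% over all distances.

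Most long pairs were called lower in osemf2b, chiefly pairs with no listed osemf2b loop. The order among pairs listed in both lists depended on the scaling. Of 2295 pairs, 436 were higher in osemf2b than in Dongjin, 18.998%, against 13.9% over all distances, and 1388 were lower, 60.5%, against 67.7%. In 1194 of the pairs called lower, osemf2b had no listed loop, so the call rested on absence from its list. Among the 1085 pairs listed in both, 420 were higher and 194 lower on list PETs, with a median log2 ratio of 0.43, whereas on total tags 206 were higher and 476 lower, with a median of -0.77. Scaled on total tags, 222 of the 2295 pairs were higher and 1670 lower, and the median log2 ratio was -2.54 in place of -1.34. Of the 875 pairs with at least 50 PETs over both lists, 318 were higher and 337 lower on list PETs, with a median of -0.01. The pair 22874986 to 22896938 with 22976108 to 23011052 on chromosome 11 had 2 PETs in osemf2b against 309 in Dongjin, 53.2-fold lower (14.6 to 441). On the same chromosome, 18408885 to 18416773 with 18527869 to 18628123 had no listed loop in osemf2b against 255 PETs in Dongjin. Chromosome 11 had the largest share of lower calls, 308 of 393 pairs, and the fewest higher ones in proportion after chromosome 2.

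Pairs higher in osemf2b included contacts near the upper limit of the range. On chromosome 5, 18219309 to 18313973 and 19238404 to 19282507, 994 kb apart, had 565 PETs in osemf2b against 57 in Dongjin, a ratio of 28.8 after scaling (21.9 to 38.5). A neighbouring pair, 18943033 to 18981518 with 19238404 to 19282507, had 249 PETs in osemf2b against 25 in Dongjin, a ratio of 28.9 (19.1 to 45.6). Both were higher in osemf2b in unscaled PETs as well. The strongest osemf2b pair with no listed loop in Dongjin joined 1860936 to 1969357 with 2761268 to 2774483 on chromosome 7, 853 kb apart, by 121 PETs.

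Distance set the comparisons apart. Among pairs listed in both lists, the median log2 ratio of osemf2b over Dongjin was -0.40 (-0.55 to -0.25) at 20 to 100 kb, 0.19 (-0.09 to 0.44) at 100 to 200 kb, 0.39 (0.18 to 0.65) at 200 to 500 kb and 1.66 (1.20 to 2.10) at 500 kb to 1 Mb. The share of compared pairs with no listed osemf2b loop was 49.1%, 44.5%, 52.2% and 67.7% in these classes. The pairs listed in both were thus a smaller selection of the compared pairs at the longest distance, and the part of that selection was not tested. Over all compared pairs, the share called lower in osemf2b was 55.4% at 100 to 200 kb and 71.3% at 500 kb to 1 Mb, and the share called higher was 17.9% and 20.7%. Over the pairs listed in both lists only, the summed PETs with no scaling were 28866 in osemf2b against 45329 in Dongjin at 100 to 200 kb. They were 15536 against 9970 at 500 kb to 1 Mb. These sums leave out the Dongjin PETs of pairs with no listed osemf2b loop.

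For ZS97 root over ZS97 seedling the median moved the other way with distance. It was 0.09 (0.01 to 0.18) at 20 to 100 kb, -0.26 (-0.41 to -0.07) at 100 to 200 kb, -0.64 (-0.81 to -0.54) at 200 to 500 kb and -1.12 (-1.44 to -0.88) at 500 kb to 1 Mb. In MH63 the root over seedling median was 0.63 (0.55 to 0.70), 0.48 (0.36 to 0.64), 0.39 (0.27 to 0.51) and 0.48 (0.29 to 0.71) in the same classes, so it was lower at 200 to 500 kb than at 20 to 100 kb. ZS97 root over MH63 root gave -0.45 (-0.49 to -0.42) at 20 to 100 kb and -1.07 (-1.21 to -0.91) at 500 kb to 1 Mb, and in these classes ZS97 seedling over MH63 seedling gave -0.19 (-0.23 to -0.14) and 0.28 (0.07 to 0.46). ZS97 root had the fewest total tags of the 6 lists, and the part of depth was not tested. A change of scaling moves every distance class of a comparison by the same amount, so it can turn the sign of a median but leaves the differences between classes as they are.

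**Figure D5:**
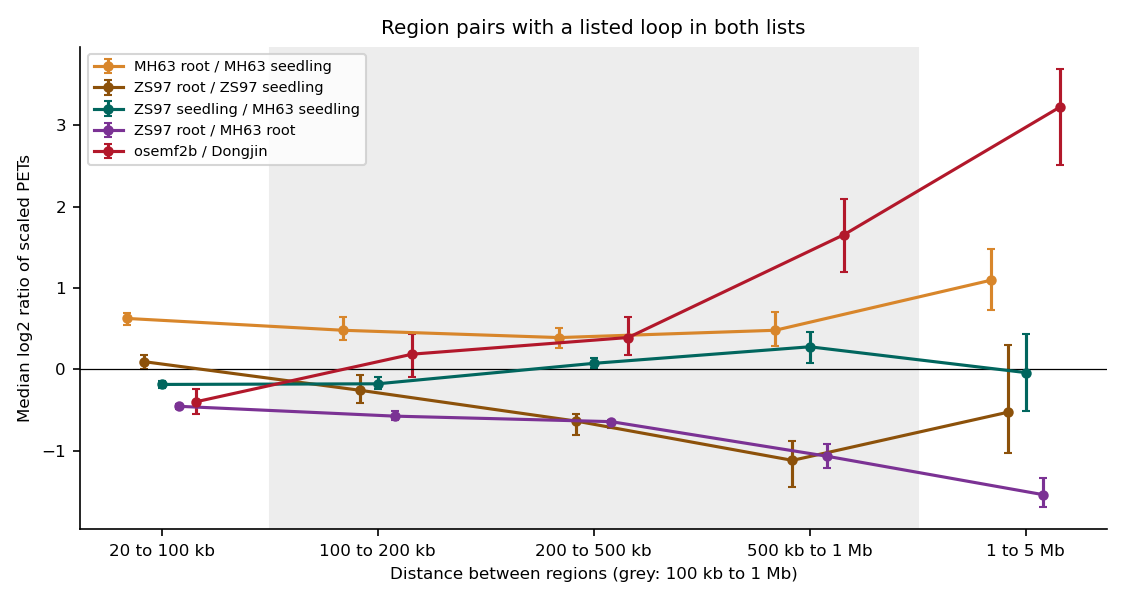
Median log2 ratio of scaled PETs over pairs of regions listed in both, by distance between the regions, with 95% order-statistic intervals. The grey band marks 100 kb to 1 Mb; lines are the 5 comparisons. The osemf2b over Dongjin line reaches 1.66 at 500 kb to 1 Mb, and the ZS97 root over ZS97 seedling line reaches -1.12 there.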

How the data were processed

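The authors deposited 1 headerless loop list of 15 columns per group, with both replicates pooled. The authors' values are raw counts of PETs per loop and of tags per anchor, and each loop carries their p-value and false discovery rate (FDR, all under 0.05), deposited with it. Per the labels' protocols, libraries were made with a bridge linker and Tn5 and read as 150 bp paired ends. No aligner, loop caller, genome build or annotation is given in the sources used here, so no gene or sequence was placed at an anchor.

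Spans are the deposited midpoint distances. Coordinates are printed 1-based. Intervals at 95% are exact Poisson for numbers, Clopper-Pearson for shares and PET ratios, and order statistics for medians (Python 3.11.15, numpy 2.4.6, pandas 2.3.3, scipy 1.17.1). Total tags were solved from p-values of 2-PET loops with over 200 tags at each anchor, taken as Poisson probabilities. The matching and calling steps were tested on simulated loops.

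Named items were, per list, the 3 loops of most PETs, the longest loop of at least 50 PETs and the anchor with most partners; per comparison, pairs among the 3 highest and 3 lowest ratios; and the 5 strongest pairs listed in all 4 ZS97 and MH63 lists. The members and rules were chosen with earlier results of these data known. Alternatives varied the PET minimum, significance limit, overlap, scaling and pairs kept.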

Additional observations from a re-analysis of the deposited data

Results flagged for a closer look

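Root and seedling differed in opposite directions in the varieties in 4 measures of the long loops, and whether the varieties differ was not tested, since each value comes from 1 pooled list. The share of loops of 2 PETs was higher in root by 13.2 percentage points in ZS97 (37.1% in root, 23.9% in seedling), while the root minus seedling difference was -17.7 points in MH63 (15.4% in root, 33.1% in seedling). The median span, as root minus seedling, differed by 10.7 kb in ZS97 (232 kb in root, 221 kb in seedling) and by -54.1 kb in MH63 (201 kb in root, 255 kb in seedling). The median number of PETs per loop differed by -1 in ZS97 (3 in root, 4 in seedling) and by 2 in MH63 (5 in root, 3 in seedling). The median log2 ratio of root over seedling over pairs of regions was -0.38 in ZS97 and 0.67 in MH63. On total tags it was 1.71 in ZS97 and 0.21 in MH63, so the opposite sign held only under the scalings on PETs and with no scaling. Total tags ran in opposite orders too, at 13.4 M in ZS97 root and 51.2 M in ZS97 seedling, and at 41.3 M in MH63 root and 22.1 M in MH63 seedling, and their part in these differences was not tested.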

How the results depend on the processing

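Of 94 values recomputed under an alternative, 44 stayed within 1.5 times the count or within the interval of the share, and 50 moved. With at least 5 PETs the numbers of long loops were 4886 in ZS97 root, 3530 in ZS97 seedling, 8477 in MH63 root, 5375 in MH63 seedling, 1357 in osemf2b and 10522 in Dongjin, since weak loops leave the lists. Looking only for loops of at least 5 PETs, the shares found again were 40.3% for ZS97 root in ZS97 seedling, 45.8% for MH63 root in MH63 seedling, 73.9% for ZS97 seedling in MH63 seedling, 74.6% for ZS97 root in MH63 root and 93.1% for osemf2b in Dongjin. With FDR below 0.01 in both lists they were 16.1%, 32.05%, 55.6%, 48.2% and 86.0% in the same order. Neither a stricter overlap nor a search among long loops only moved a share beyond its interval. Scaled on total tags, the higher and lower calls were 975 and 99 for ZS97 root over seedling, 84 and 1080 for ZS97 over MH63 seedling and 681 and 438 for ZS97 over MH63 root, and 222 pairs were higher in osemf2b than in Dongjin, against 165 with no scaling. Scaled on PETs within chromosomes, 311 pairs were higher in ZS97 than in MH63 seedling. Among pairs listed in both lists, the higher and lower calls were 690 and 247 for MH63 root over seedling, 197 pairs were higher in ZS97 root than in seedling, 215 were lower in ZS97 than in MH63 seedling, 71 were higher in ZS97 than in MH63 root, and 194 were lower in osemf2b than in Dongjin. Further alternatives were chosen after seeing the data. On total tags, 59 pairs were lower in root in both varieties. Among pairs listed in both lists and scaled on total tags, the higher and lower calls were 441 and 463 for MH63 root over seedling. They were 761 and 13 for ZS97 root over seedling and 37 and 837 for ZS97 over MH63 seedling. For ZS97 over MH63 root they were 644 and 119, and for osemf2b over Dongjin 206 and 476. With at least 50 PETs, where fewer pairs are compared, the higher and lower calls were 368 and 170 for MH63 root over seedling, 114 and 193 for ZS97 root over seedling, 69 and 135 for ZS97 over MH63 seedling and 22 and 347 for ZS97 over MH63 root. They were 318 and 337 for osemf2b over Dongjin. The cause of the differences between scalings was not tested.

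No paired analysis was possible because each list pools both replicates, and no replicate was left out for the same reason. A loop that is not listed fell below the authors' thresholds or was not seen at this depth, so absence from a list shows neither. The total tags differ by list, and weak loops depend on them most. Shares found again depend on the number and width of anchors in the searched list. No genes were placed, and loops were not compared between the sets of lists.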

Other observations

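Windows on 4 chromosomes were chosen after their values were seen, and their shares are descriptions. On chromosome 7, 1.4 to 2.5 Mb held 3.19% of the PETs of long loops in ZS97 root, 6.87% in ZS97 seedling, 6.55% in MH63 root and 9.60% in MH63 seedling. On its own coordinates, the same interval of chromosome 7 held 11.8% in osemf2b against 8.42% in Dongjin. The window at 18.7 to 19.3 Mb on chromosome 11 held a larger share in ZS97, with 4.38% of the PETs in ZS97 root and 9.07% in ZS97 seedling, against 2.18% in MH63 root and 2.08% in MH63 seedling. With no scaling it held 4216 PETs in ZS97 root and 4361 in MH63 root, and 6714 in ZS97 seedling and 2354 in MH63 seedling. In contrast, the window at 16.6 to 18.9 Mb on chromosome 12 was weaker in ZS97 seedling, at 1.81%, than in ZS97 root, MH63 root and MH63 seedling, at 4.17%, 5.18% and 3.92%.

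Between osemf2b and Dongjin, windows differed in both directions. The interval 18.1 to 19.3 Mb on chromosome 5 held 1656 PETs over 24 loops in osemf2b against 908 PETs over 85 loops in Dongjin, although the osemf2b list has fewer PETs in all. The interval 18.3 to 18.9 Mb on chromosome 11 held 663 PETs over 33 loops in osemf2b against 8447 PETs over 119 loops in Dongjin. By chromosome, the median log2 ratio of osemf2b over Dongjin over long pairs was -0.42 on chromosome 12 and -0.62 on chromosome 10, against -1.63 on chromosome 11.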
